A study of Mus musculus with 30 samples.

Results

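The genes described here encode the machinery that stores neurotransmitter in synaptic vesicles and releases it at the presynaptic terminal. A list of 33 mouse genes was used, and a gene counted as found when the expression table held an entry under exactly its symbol. Of the 33 genes, 32 had such an entry among 23303 entries in all. The remaining gene, Rims1, was split by the study's transcript assembly into 2 locus entries, which are described separately and enter no count. Levels are in FPKM, mapped fragments scaled to transcript length and library size.

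The animals were male C57BL/6J mice aged 2 to 3 months, in 3 groups. Home cage mice (HC) were handled and killed under basal conditions. Fear conditioned mice (FC) were handled, received 5 pairings of a tone with a foot-shock, and were killed 2 h later. Immo+FC mice were immobilized for 2 h a week before the same conditioning and were killed at the same interval after it, and no group was immobilized without conditioning. Each library was a pool of tissue from 2 mice of a group. Amygdala was taken as bilateral 1 mm punches centred on the basolateral nucleus, in which neighbouring nuclei may be included, and blood was trunk blood collected after decapitation and depleted of globin transcripts. There were 16 amygdala libraries (6 HC, 6 FC and 4 Immo+FC) and 14 blood libraries (4 HC, 5 FC and 5 Immo+FC). The p-values therefore measure the spread between pools, not between single animals.

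Amygdala libraries held 23148078 to 31366290 sequences, of which 91.33 to 92.3% mapped uniquely, and blood libraries held 9081977 to 25892322, of which 60.06 to 72.59% did. The labelled tissues were checked by their marker genes. A list of 6 forebrain neuron genes summed to 78.8 to 133.5 FPKM in amygdala and to 0 to 2.295 FPKM in blood, while a list of 7 lymphocyte genes summed to 0.851 to 1.66 FPKM in amygdala and to 1308 to 2839 FPKM in blood. The punches varied in neighbouring tissue. Choroid plexus genes summed to between 2.57 and 1057 FPKM and striatal neuron genes to between 153 and 514 FPKM across the amygdala libraries of all groups. In blood, HC library 3 stood apart with an erythroid marker sum of 4059 FPKM against 417 to 1213 FPKM in the others, and HC library 4 was the shallowest at 9081977 sequences.

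A synaptic vesicle fuses when the vesicle protein VAMP2 zips together with syntaxin and SNAP-25 of the plasma membrane into a SNARE complex, held by complexin until synaptotagmin-1 binds calcium. Active zone scaffolds such as Bassoon, Piccolo, RIM and Munc13 hold and prime vesicles at the release site, NSF and its SNAP adaptors take used SNARE complexes apart, and dynamin, amphiphysin and synaptojanin retrieve the membrane. In the basolateral amygdala most projection neurons fill their vesicles with glutamate through VGLUT1, the product of Slc17a7, while local and central amygdala inhibitory neurons load GABA through VGAT, the product of Slc32a1. Blood cells have no synapses, but use several of the general membrane fusion factors.

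Many neuronal genes are held silent outside neurons through the element RE1, the binding site of the repressor REST. The 250 bases before the start of each gene in RefSeq (GRCm38.p6) were searched on both strands for short letter strings, and 30 of the 33 genes had a sequence. The left part of RE1, written TTCAGCACC, stood before 2 of them, Syn1 and Ppfia3, and before 0.348% of 27025 genes. These 2 sequences and that of Napa, the member with the highest blood level relative to amygdala, are given here 5′ to 3′, with TTCAGCACC in capitals in the first pair and a GC box, GGGCGG, in capitals in the third.
Syn1, chrX:20920919-20921168, minus strand: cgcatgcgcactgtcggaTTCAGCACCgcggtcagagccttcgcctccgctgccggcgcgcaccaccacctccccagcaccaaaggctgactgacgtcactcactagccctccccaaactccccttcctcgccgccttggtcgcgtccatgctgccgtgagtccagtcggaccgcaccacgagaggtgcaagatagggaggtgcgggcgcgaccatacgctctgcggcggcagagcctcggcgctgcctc
Ppfia3, chr7:45367020-45367269, minus strand: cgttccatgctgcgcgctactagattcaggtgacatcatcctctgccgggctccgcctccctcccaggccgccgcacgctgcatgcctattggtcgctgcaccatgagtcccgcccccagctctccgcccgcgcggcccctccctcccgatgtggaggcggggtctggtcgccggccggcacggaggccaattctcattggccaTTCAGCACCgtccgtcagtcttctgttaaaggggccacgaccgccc
Napa, chr7:16098330-16098579, plus strand: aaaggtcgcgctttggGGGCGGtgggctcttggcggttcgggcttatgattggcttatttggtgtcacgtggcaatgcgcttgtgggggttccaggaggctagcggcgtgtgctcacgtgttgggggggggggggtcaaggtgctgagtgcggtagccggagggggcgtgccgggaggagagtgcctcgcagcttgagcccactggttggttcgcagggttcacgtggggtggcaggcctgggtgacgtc
The capitals began 232 bases before the start in Syn1, 46 in Ppfia3 and 234 in Napa. The right part of RE1, GGACAGC, stood before Rph3a alone among the members, and before 6.14% of all genes. The cAMP response element, TGACGTCA, stood before Syn1 alone, and before 1.77% of all genes. GC boxes stood before 19 of the 30, and before 35.4% of all genes. These are letter matches and not sites known to be bound.

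In the amygdala all 32 genes averaged more than 0.5 FPKM, the minimum set for testing. Averaged over the 16 libraries, Snap25 (chr2:136713453-136782428 in mm10), which encodes one of the plasma membrane SNAREs, had the highest FPKM at 878, above 99.97% of the 23303 entries. The synaptic vesicle glycoprotein Sv2c had the lowest at 4.93 FPKM, which was above 63.5% of them. FPKM is a level per transcript length, so genes can be set side by side, although a gene with several isoforms or overlapping neighbours is measured less surely.

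Among the SNAREs, Vamp2 was at 378 FPKM, Stx1a at 112 FPKM and Vamp1, a VAMP2 relative more used in hindbrain and spinal cord, at 26.7 FPKM. The calcium sensor Syt1 was at 295 FPKM. Within each amygdala library Vamp2 was 10.9 to 17.7 times as high as Vamp1, and Snap25 was 2.71 to 3.46 times as high as Syt1.

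The complexins Cplx2 and Cplx1 were at 197 and 167 FPKM, with library ranges that met. The vesicle protein synaptophysin, Syp, was the second most abundant member at 510 FPKM. The synapsins, which tether vesicles to each other, were at 233 FPKM for Syn2 and 154 FPKM for Syn1, and Syn2 exceeded Syn1 in every amygdala library, by 1.32 to 1.67 times. The vesicle proteins Syngr1, Sv2b and Sv2a were at 130, 108 and 103 FPKM.

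The active zone genes were at or below 49.97 FPKM. Unc13a, the Munc13-1 priming factor, was the highest of them, and the scaffolds Ppfia3, Bsn and Erc2 were at 33.4, 32.5 and 29.1 FPKM. Rims2 was at 14.8 FPKM and Pclo, which encodes Piccolo, at 14.7 FPKM. The 2 Rims1 entries had library values of 21.01 to 38.5 FPKM and 16.4 to 36.3 FPKM. Bsn and Pclo have the longest transcripts of the list, 15938 and 20084 bases in GENCODE M21, followed by Unc13a with 10255.

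Of the factors that take SNARE complexes apart, Nsf was at 270.1 FPKM, the neuronal adaptor Napb at 145 FPKM and the general adaptor Napa at 61.4 FPKM. The vesicle GTPase Rab3a was at 309 FPKM and its effector Rph3a at 83.6 FPKM. Membrane retrieval genes were at 238 FPKM for Dnm1, 92.1 FPKM for Amph and 66.9 FPKM for Synj1, and Snph, an anchor of axonal mitochondria, was at 56.9 FPKM.

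The vesicular transporters were ordered as Slc17a7, Slc32a1 and Slc17a6, at 408, 33.6 and 8.20 FPKM. Slc17a6 encodes VGLUT2, the glutamate transporter of many subcortical neurons. No library of one transporter reached a library of the next. Slc17a7 was 6.75 to 17.5 times as high as Slc32a1 within a library and 37.0 to 65.6 times as high as Slc17a6.

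Members differed in how much they varied between amygdala libraries. The coefficient of variation over the 16 libraries was smallest for Dnm1, at 4.31%, and largest for Sv2c at 31.4%, Slc32a1 at 22.4% and Pclo at 21.8%. Sv2c ranged from 1.49 FPKM in an FC library to 8.01 FPKM in an Immo+FC library. The rest lay between 4.90% for Ppfia3 and 16.4% for Slc17a6. In such bulk tissue, fewer cells of a type and less RNA per cell cannot be told apart.

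The first question was whether 2 h after fear conditioning the presynaptic transcripts of the amygdala differed from those of home cage mice. Each gene was tested with limma on log2(FPKM + 0.1), a scale that understates the change of low genes, over all genes that averaged 0.5 FPKM or more in that tissue, and called at a Benjamini-Hochberg adjusted p under 0.05. None of the 32 members passed in FC vs. HC, where 0.0148% of the 13508 genes tested did. At an unadjusted p under 0.05, 2 members were lower in FC (Pclo and Erc2) and 0 higher, against 6.48% of all genes lower and 6.59% higher. The members' median log2 fold change was 0.033 and that of all genes 0.015.

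The abundant release genes were close to level. Snap25 was 817 to 943 FPKM in HC (median 888), 825 to 998 FPKM in FC (median 865), and 799, 897, 775 and 963 FPKM in Immo+FC. The groups overlapped throughout, and the log2 fold change of FC vs. HC was 0.0056 with a standard error of 0.063 (limma adjusted p = 0.984). Its 95% confidence interval ran from -0.13 to 0.14.

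Syt1 was 278 to 331 FPKM in HC (median 304), 274 to 314 FPKM in FC (median 295), and 231, 312, 267 and 314 FPKM in Immo+FC. Its log2 fold change in FC vs. HC was -0.053 with a standard error of 0.070 (limma adjusted p = 0.799). The groups overlapped, and Immo+FC pools 1 and 3 were the lowest of the 16.

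The transporters showed no separation of groups either. Slc17a7 was 378 to 451 FPKM in HC (median 424), 372 to 457 FPKM in FC (median 410), and 418, 412, 308 and 392 FPKM in Immo+FC. Its log2 fold change in FC vs. HC was -0.013, within a 95% confidence interval of -0.16 to 0.14. Slc17a6 was 6.44 to 9.40 FPKM in HC (median 8.67), 6.36 to 9.92 FPKM in FC (median 8.12), and 6.38, 7.33, 8.26 and 10.6 FPKM in Immo+FC. For this low transporter the interval was wider, from -0.26 to 0.30 around a log2 fold change of 0.020. The inhibitory transporter Slc32a1 was 26.1 to 35.7 FPKM in HC (median 31.5), 23.7 to 51.2 FPKM in FC (median 35.0), and 38.0, 27.8, 45.6 and 24.8 FPKM in Immo+FC. Its spread was larger in both conditioned groups than in HC, and its log2 fold change in FC vs. HC of 0.18 had a 95% confidence interval of -0.17 to 0.53.

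**Figure D1:**
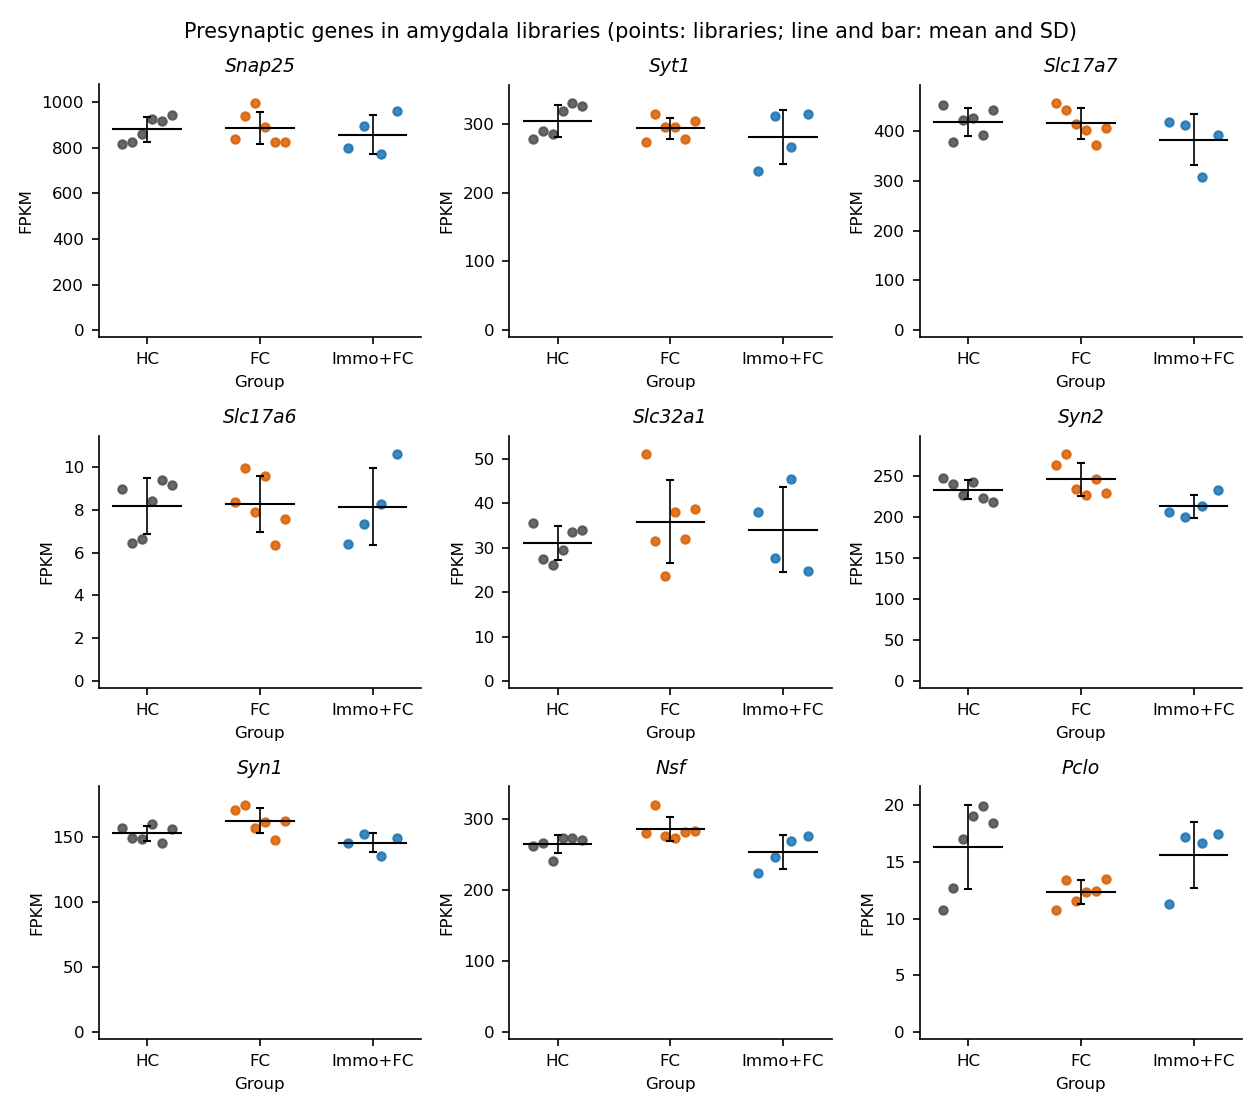
FPKM (vertical axes) of 9 presynaptic genes in each amygdala library by group (horizontal axes), with a point for each library and a line and bar for the mean and SD. Points of HC, FC and Immo+FC overlap for every gene shown except Nsf, whose FC points lie from 274 FPKM upwards, just above the HC points.

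The member with the smallest p in FC vs. HC was Pclo (chr5:14514918-14863459 in mm10). It read 10.8, 12.7, 17.0, 19.03, 19.9 and 18.5 FPKM in HC, 10.8 to 13.5 FPKM in FC (median 12.4), and 11.3, 17.2, 16.6 and 17.4 FPKM in Immo+FC. The first 2 HC pools and the first Immo+FC pool lay within the FC range and the others above it. The log2 fold change of FC vs. HC was -0.37 with a standard error of 0.14 (unadjusted p = 0.0188 and adjusted p = 0.254 by limma), and that of Immo+FC vs. FC was 0.32 (adjusted p = 0.505).

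Transcript length moved with this pattern. The mean log2 level of 314 other genes with transcripts over 10000 bases, centred on its average across the tissue, was -0.178 and -0.131 in the first pair of HC pools, -0.325 to -0.0931 in FC and -0.222 in Immo+FC library 1, and was 0.207 to 0.260 in HC libraries 3 to 6 and 0.210 to 0.246 in Immo+FC libraries 2 to 4. With this value as a covariate the log2 fold change of Pclo was 0.055 in FC vs. HC and -0.12 in Immo+FC vs. FC. Without HC libraries 1 and 2 the log2 fold change of Pclo was -0.59 in FC vs. HC and past the threshold, where 2.29% of all genes were called lower. These are the pools whose Pclo values lay in the FC range, so leaving them out widens the difference by construction and the call is no support for it. With library weights it also passed, at -0.43 (limma adjusted p = 0.0405), where 2.73% of all genes were called lower. Leaving out any single library left it above the threshold, with adjusted p from 0.0705 to 0.491.

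Bsn, the other very long active zone gene, was 29.4 to 35.5 FPKM in HC, 28.4 to 36.2 FPKM in FC, and 23.7, 34.9, 29.9 and 33.4 FPKM in Immo+FC. Its log2 fold changes were 0.048 in FC vs. HC and -0.16 in Immo+FC vs. FC. With the long transcript covariate they were 0.24 (limma adjusted p = 0.227) and -0.36 (limma adjusted p = 0.133). So the covariate moved Pclo towards 0 in FC vs. HC and Bsn away from it.

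The scaffold Erc2 was 27.3 to 33.5 FPKM in HC (median 31.7), 23.8 to 29.1 FPKM in FC (median 28.4), and 22.9, 31.7, 24.5 and 32.1 FPKM in Immo+FC. A single HC pool, at 27.3 FPKM, lay inside the FC range. Its log2 fold change of -0.18 in FC vs. HC had a standard error of 0.080 (unadjusted p = 0.0410 and adjusted p = 0.350 by limma). The first Rims1 entry was 26.4 to 38.5 FPKM in HC and 26.3 to 32.7 FPKM in FC, and the second 21.1 to 36.3 FPKM and 22.02 to 28.1 FPKM.

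Nsf (chr11:103821782-103954056 in mm10), the ATPase that recycles SNARE complexes, was the single member whose FC and HC libraries did not overlap. It was 241 to 273.7 FPKM in HC (median 269.0) and 274.2 to 320.4 FPKM in FC (median 281), and 224, 247, 269.7 and 276 FPKM in Immo+FC. The gap between the groups was thus under 1 FPKM, and 0.431% of the 19260 genes above 0 were higher in every FC library, with 0.659% lower in every one. The log2 fold change was 0.11 with a standard error of 0.053 (limma adjusted p = 0.386).

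The second question was whether immobilization a week before conditioning went with other presynaptic levels 2 h after it. Of the 32 members, 0 passed the test in Immo+FC vs. FC, where 0.0222% of all genes did. At an unadjusted p under 0.05, 7 members were lower in Immo+FC and 0 higher, against 6.49% of all genes lower and 3.94% higher. The log2 fold change was below 0 for 29 of the 32, with a median of -0.078, and below 0 for 60.05% of all genes, with a median of -0.023. The lowest of the 29 was -0.20, for Syn2.

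By role, the 5 SNARE and sensor genes, the 3 recycling genes, the 3 retrieval genes and the 3 transporters were all below 0, as were 6 of 7 vesicle protein genes and 5 of 6 active zone genes. The 3 members above 0 were Sv2c at 0.45, Pclo at 0.32 and Cplx2 at 0.0094. Snap25 was at -0.048, Syt1 at -0.072, Slc17a7 at -0.12, Slc17a6 at -0.032 and Slc32a1 at -0.079, with limma adjusted p of 0.610 or more.

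The 4 smallest p-values belonged to a pair of synapsins, Nsf and Dnm1. Syn2 was 226 to 277 FPKM in FC (median 240.1) and 206, 200.3, 214 and 232 FPKM in Immo+FC, so that 1 of the 4 pools lay within the FC range. Its log2 fold change was -0.20 with a standard error of 0.061 (unadjusted p = 0.00381 and adjusted p = 0.224 by limma). Syn1 was 148 to 174 FPKM in FC (median 161) and 145, 152, 135 and 149 FPKM in Immo+FC. Its log2 fold change was -0.16 with a standard error of 0.048 (limma adjusted p = 0.240). Timp1 and Araf overlap Syn1, Timp4 overlaps Syn2 and Ciz1 overlaps Dnm1, and since no source used here states whether the libraries kept the strand, fragments of the partners cannot be told apart.

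For Nsf the log2 fold change was -0.17 with a standard error of 0.060 (limma adjusted p = 0.310). Dnm1, the neuronal dynamin, was 232 to 254 FPKM in FC (median 247) and 227, 232, 220.3 and 230.4 FPKM in Immo+FC, at a log2 fold change of -0.11 (limma adjusted p = 0.337). The other members with an unadjusted p under 0.05 were Amph at -0.13, Syngr1 at -0.15 and Vamp2 at -0.11.

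Single pools bore on this median. Without Immo+FC library 1 it was -0.054 with 23 of 32 below 0, without Immo+FC library 4 it was -0.11 with 29 below 0, and under median-ratio scaling between libraries it was -0.058 with 27 below 0. With the long transcript covariate all 32 were below 0, at a median of -0.14, and 0 passed the test. The median of all genes under these settings, in the same order, was -0.020, -0.023, -0.0033 and -0.037. The part that neighbouring tissue in the punch had in these differences was not tested; choroid plexus genes summed to 2.93 to 911 FPKM in FC and 113 to 964 FPKM in Immo+FC, and striatal genes to 160.2 to 497 FPKM and 219.9 to 514 FPKM. A list of 14 other neuronal genes, which includes Camk2a, Gad1 and Gad2, moved with the members. It summed to 2853 to 3025 FPKM in FC (median 2937) and to 2673, 2716, 2691 and 2855 FPKM in Immo+FC. So 3 of the 4 Immo+FC pools lay below every FC pool. In HC the list summed to 2767 to 2937 FPKM (median 2805), a range that overlapped both other groups.

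**Figure D2:**
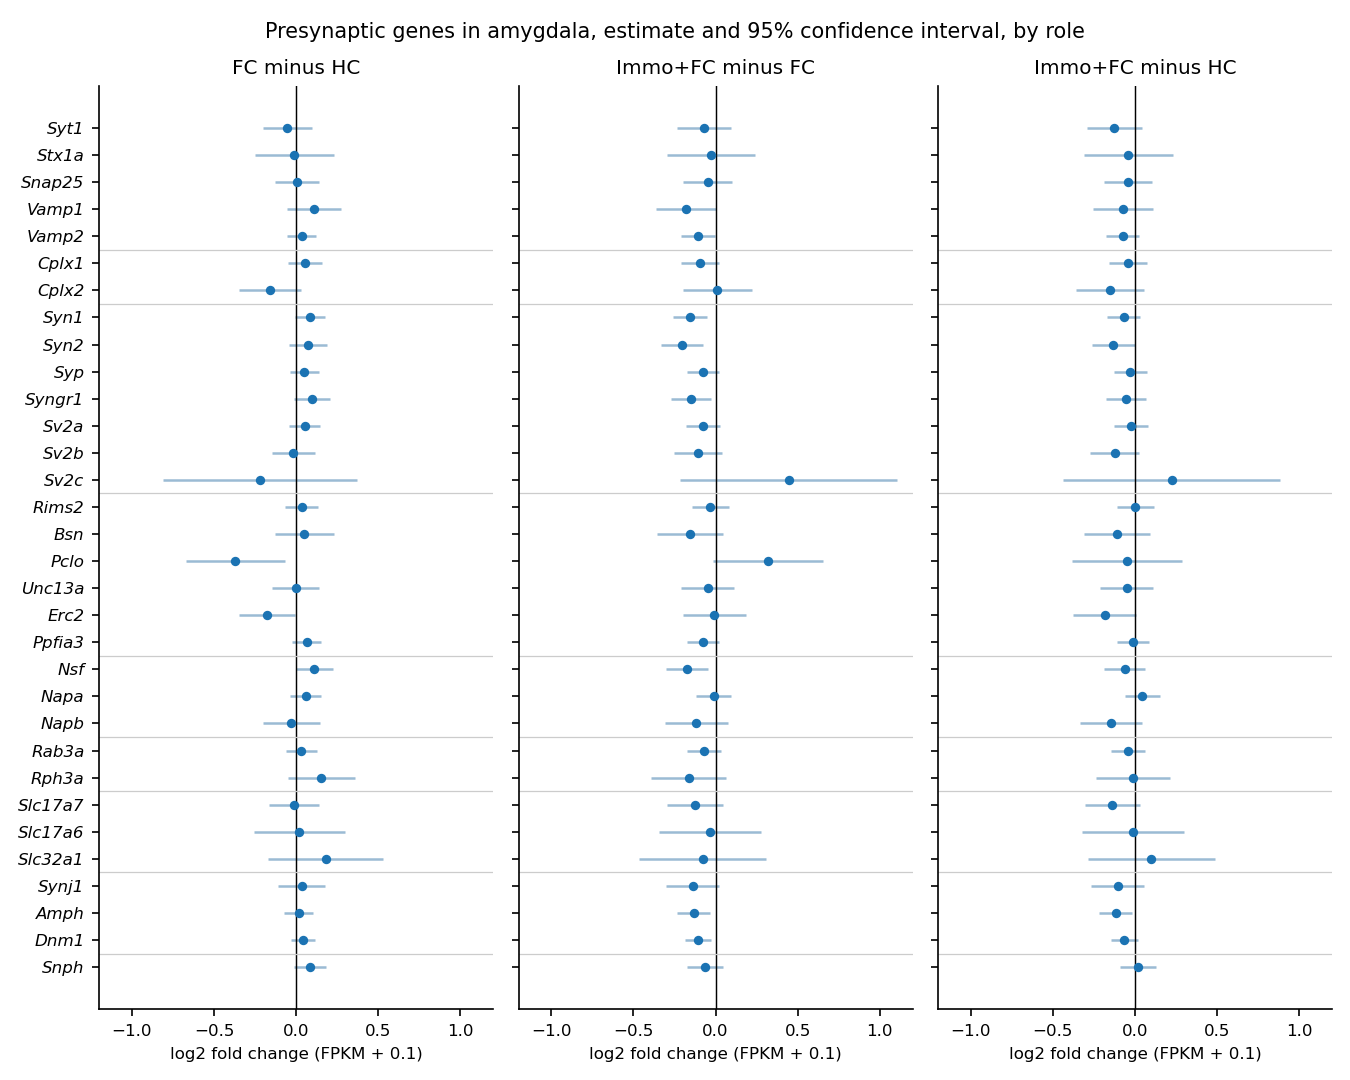
Log2 fold changes on FPKM + 0.1 (horizontal axes) of the 32 genes found by symbol in amygdala for FC vs. HC, Immo+FC vs. FC and Immo+FC vs. HC, with points for estimates, bars for 95% confidence intervals, and genes grouped by role on the vertical axis. Estimates lie on both sides of 0 in FC vs. HC, and 29 of 32 lie below 0 in Immo+FC vs. FC.

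The comparison of Immo+FC vs. HC called 0 of 32 members, where 0.2% of all genes did, and an unadjusted p under 0.05 was reached by 2 that were lower and 0 that were higher, against 7.73% and 5.34% of all genes. In both comparisons with Immo+FC, all 32 members had overlapping groups, while the share of genes separated upwards and downwards was 0.852% and 1.06% from FC and 0.862% and 1.17% from HC. The members' median was -0.051, with 27 below 0, and that of all genes -0.012. The 3 comparisons share libraries, so their values are not independent of one another. Amph, whose product links clathrin coats to dynamin, had the smallest p. It was 89.5 to 97.5 FPKM in HC (median 93.1) and 83.0, 85.7, 81.1 and 95.8 FPKM in Immo+FC, at a log2 fold change of -0.12 with a standard error of 0.048 (limma adjusted p = 0.305). In Immo+FC, 3 of the 4 pools lay below every HC pool. Syn2, at 219 to 248 FPKM in HC (median 234), was at -0.13 (limma adjusted p = 0.372). Erc2 was at -0.18 (limma adjusted p = 0.394) and Sv2b, at 106 to 118 FPKM in HC (median 110.5) and 91.9, 106, 91.6 and 120.3 FPKM in Immo+FC, at -0.12 (limma adjusted p = 0.479). The log2 fold changes were -0.042 for Snap25, -0.12 for Syt1, -0.14 for Slc17a7, -0.012 for Slc17a6, 0.10 for Slc32a1 and -0.049 for Pclo.

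A further list of 57 presynaptic genes, with other synaptotagmins, endophilins, neurexins and release channels, was tested in the same fit, and 56 passed the minimum level. None passed the threshold in any of the 3 amygdala comparisons. At an unadjusted p under 0.05, 2 were higher and 1 lower in FC vs. HC, 1 higher and 5 lower in Immo+FC vs. FC, and 0 higher and 5 lower in Immo+FC vs. HC. The shares over all genes at that p were 6.59% higher and 6.48% lower, 3.94% and 6.49%, and 5.34% and 7.73% in the same order. The list's median log2 fold change in Immo+FC vs. FC was -0.048, between the medians of the members and of all genes. The fold change was below 0 for 40 of the 56, against 60.05% of all genes.

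The same 32 genes were then read in blood, as a measure of brain RNA in those samples. Cell types of blood also use some of these genes, so each blood level was set against the mean of the 6 HC amygdala libraries. The tissues were processed separately by the authors, and these percentages across them carry that limit.

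In FC blood, 24 genes were under 2% of the amygdala level and 8 at or above it. This boundary was chosen after the values were seen. The 8 were Napa at 219%, Syngr1 at 68.6%, Vamp1 at 45.2%, Vamp2 at 7.58%, Synj1 at 5.64%, Nsf at 5.23%, Stx1a at 2.59% and Sv2c at 2.44%. Nearest below the boundary was Rab3a at 1.45%. Napa, Nsf and Vamp2 serve membrane fusion in many cell types. Cd27 and Tapbpl overlap Vamp1, and Rpl3 overlaps Syngr1, on the opposite strand, so that without a stated strand their fragments cannot be told apart.

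For the 24 genes, which include Snap25, Syt1, the complexins, the synapsins, all 6 active zone genes found by symbol and the 3 transporters, HC blood stood at 0.897% (Pclo) to 2.42% (Rims2) of amygdala, with a median of 1.28%. FC blood stood at 0.0748 to 1.45% with a median of 0.218%, and Immo+FC blood at 0.131 to 1.39% with a median of 0.274%. The excess of HC over FC blood was 0.697 to 2.12% of the amygdala level across genes whose amygdala means ran from 8.16 to 882 FPKM, with a median of 1.06%. The excess over Immo+FC blood was 0.754 to 2.07%, with a median of 0.978%. A low FC blood level chose these 24, so the differences are a description. For the other 8 the excess ran from -5.41 to 30.7% over FC and from -6.64 to 40.2% over Immo+FC.

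**Figure D3:**
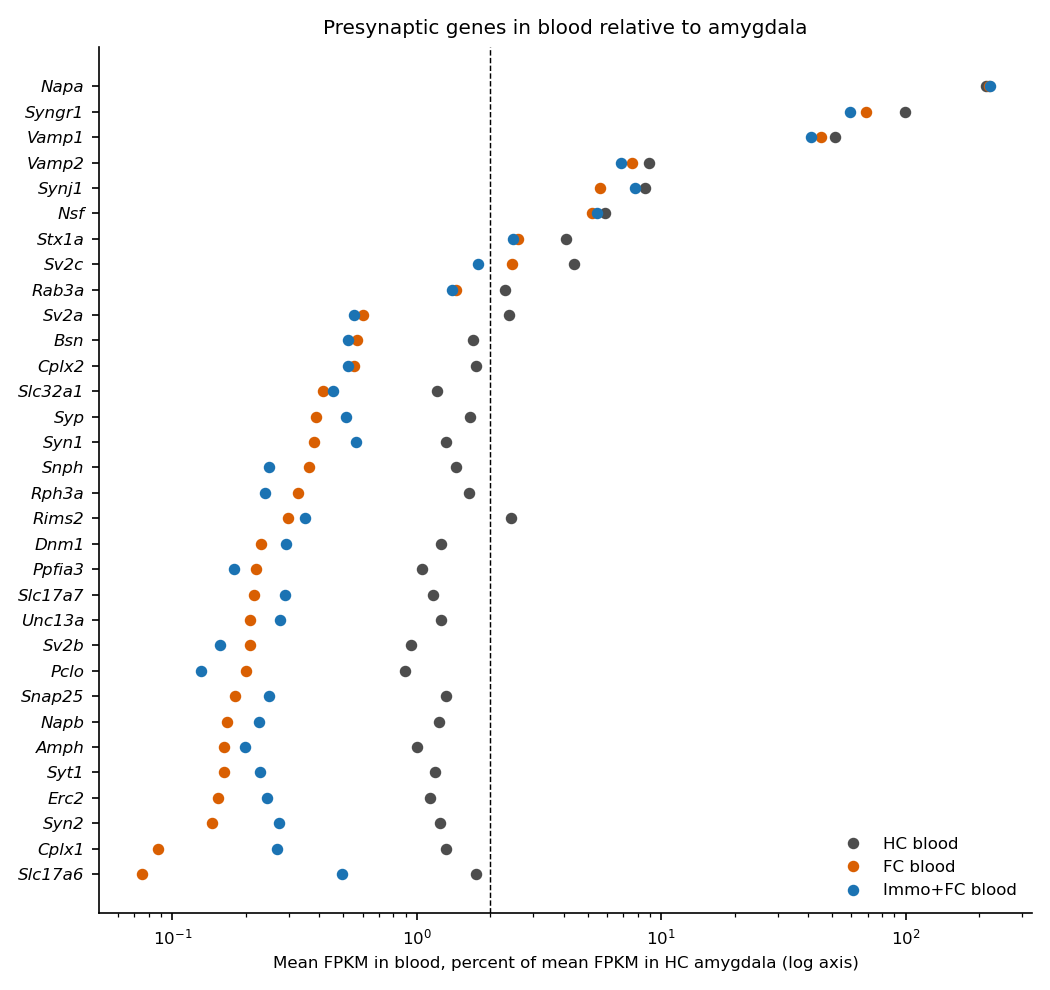
Mean blood level of each of the 32 genes as a percentage of its mean in HC amygdala, for HC, FC and Immo+FC blood, on a logarithmic axis. For the 24 genes under 2% in FC blood the HC values sit near 1 to 2% and above both conditioned groups, while Napa sits at 214 to 221%, Syngr1 at 59.1 to 99.3% and Vamp1 at 41.0 to 51.2%.

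Pools differed within groups. The median over the 24 genes was 1.40, 0.498, 1.51 and 1.70% in HC libraries 1 to 4, between 0.0884 and 0.442% in the 5 FC libraries, and 0.189, 0.218, 0.314, 0.587 and 0.0293% in Immo+FC libraries 1 to 5. So Immo+FC library 4 lay above HC library 2. Among the members the pool order recurred. HC libraries 1, 3 and 4 were the highest 3 of the 14 for 22 of 32 members. HC library 2 was the lowest HC pool for 28 and FC library 5 the highest FC pool for 25. Immo+FC library 4 was the highest Immo+FC pool for 20. How often all genes had these orders was not counted, so the orders are not read as a trait of the members. Without HC libraries 3 and 4, which stood apart by erythroid level or depth, the median excess was 0.658% over FC and 0.637% over Immo+FC.

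**Figure D4:**
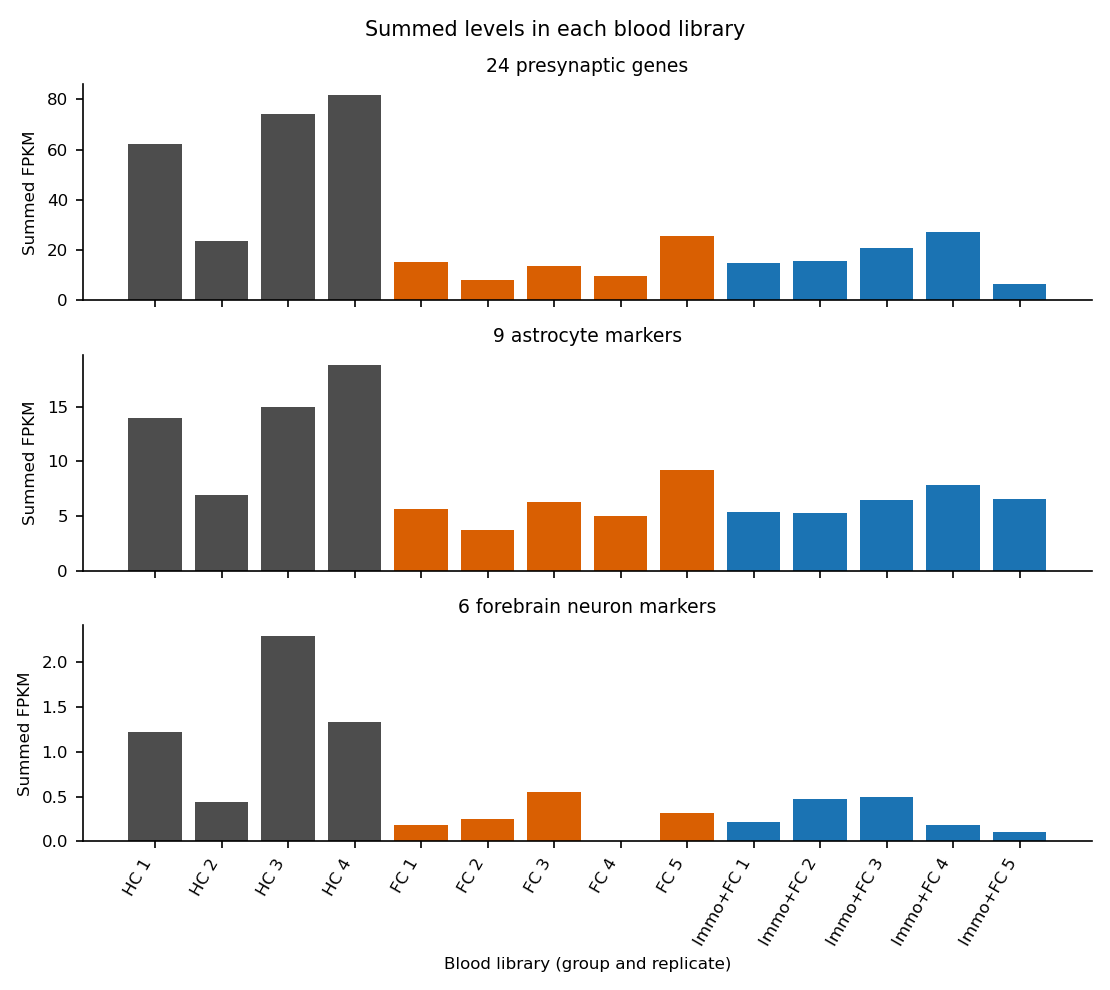
Summed FPKM of the 24 low-blood presynaptic genes in each blood library, (top), of 9 astrocyte markers (middle) and of 6 forebrain neuron markers (bottom), with a bar for each library. The presynaptic sums reach 62.3, 23.5, 74.3 and 81.9 FPKM in HC libraries, 8.19 to 25.8 FPKM in FC libraries and 6.43 to 27.4 FPKM in Immo+FC libraries.

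In the limma test, 20 of the 32 members passed the minimum level in blood and 12 did not, and 4 of the 20 (Cplx1, Syn2, Napb and Rph3a) passed through their HC level alone. For these 4 a difference from HC was built into the choice, and their values against HC are descriptions with no test. None passed the threshold in FC vs. HC, where 0.0343% of the 11656 genes tested did, in Immo+FC vs. HC, where 0.0686% did, or in Immo+FC vs. FC, where 0% did. At an unadjusted p under 0.05, 14 were lower in FC vs. HC and 15 in Immo+FC vs. HC, and 1 was higher in Immo+FC vs. FC, against 5.87%, 8.12% and 5.79% of all genes in those directions. In the opposite directions there were 0 members and 4.34%, 7.14% and 3.75% of all genes. Since passing the minimum depended on HC, these counts are given without further reading.

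Among genes above 0 in any blood library, and so with no minimum, 12 of 32 members were lower in every FC library than in every HC library, against 3.25% of 17530 genes. They were Cplx1, Syn1, Syn2, Syp, Unc13a, Erc2, Ppfia3, Napb, Slc17a6, Amph, Dnm1 and Snph. Immo+FC vs. HC gave 9, Vamp2, Cplx2, Sv2a, Pclo, Unc13a, Rph3a, Slc17a6, Amph and Snph, against 3.37%. None was separated between Immo+FC and FC, where 0.542% of genes were higher and 0.656% lower in every library, and none was higher than in HC in every FC (1.19%) or every Immo+FC (1.36%) library. The counts depended on single libraries. Without HC library 2, 23 members were separated in FC vs. HC (6.97% of genes) and 25 in Immo+FC vs. HC (7.31%). Without FC library 5 the first count was 22 (5.32%), and without Immo+FC library 4 the second was 18 (5.2%). These were the lowest HC, highest FC and highest Immo+FC pools for most members. Leaving them out raises the counts by construction, so the higher counts are no support for a difference. Without HC libraries 3 and 4 together they were 12 (7.64%) and 10 (10.5%).

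Snap25 was 11.7, 3.60, 14.5 and 16.5 FPKM in HC blood, 1.89, 0.142, 1.17, 0.526 and 4.21 FPKM in FC blood, and 2.06, 1.92, 2.57, 4.37 and 0.0747 FPKM in Immo+FC blood. HC library 2 lay inside the range of both conditioned groups. The log2 fold change was -3.20 with a standard error of 0.91 in FC vs. HC (limma adjusted p = 0.176), -2.71 in Immo+FC vs. HC (limma adjusted p = 0.166) and 0.49 in Immo+FC vs. FC (limma adjusted p = 0.902).

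Syt1 was 3.70, 1.12, 4.45 and 5.17 FPKM in HC blood, 0.651, 0.0897, 0.311, 0.194 and 1.22 FPKM in FC blood, and 0.462, 0.664, 0.900, 1.41 and 0.0315 FPKM in Immo+FC blood. Its log2 fold changes from HC were -2.79 in FC (limma adjusted p = 0.135) and -2.41 in Immo+FC (limma adjusted p = 0.117), and 0.38 in Immo+FC vs. FC. The ratio of Snap25 to Syt1 was 3.16 to 3.27 in HC blood and 2.77 to 3.01 in HC amygdala, while in FC blood, with values near 0, it was 1.58 to 3.76.

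Cplx1 (chr5:108518554-108550024 in mm10) had the lowest log2 fold change in FC vs. HC among the members that passed the minimum, and is one of the 4 that passed through HC alone. It was 2.50, 0.502, 2.302 and 3.46 FPKM in HC blood, was listed at 0 in 3 of 5 FC libraries with 0.237 and 0.490 FPKM in the others, and was 0.298, 0.168, 0.549, 1.14 and 0.0720 FPKM in Immo+FC blood. Every FC library lay below every HC library, the nearest by 0.490 against 0.502 FPKM. The log2 fold change was -3.39 with a standard error of 0.73. It was 1.24 in Immo+FC vs. FC (unadjusted p = 0.0916 and adjusted p = 0.570 by limma).

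Syn2 and Napb, which also passed through HC alone, were at -2.89 and -2.54 in FC vs. HC. Of the members that passed without HC, the smallest p-values were those of Syn1 at -1.56, Dnm1 at -2.25 and Syp at -1.85 (limma adjusted p = 0.126 for Syn1). Syn2 was 2.97, 0.954, 4.71 and 3.02 FPKM in HC and 0.0645 to 0.929 FPKM in FC. Napb was 1.67, 0.657, 2.95 and 2.09 FPKM in HC and 0 to 0.557 FPKM in FC. Syn1 was 1.99, 1.01, 1.79 and 3.27 FPKM in HC and 0.411 to 0.842 FPKM in FC. In all 3 the FC libraries lay below the HC libraries. Napb and Napa encode close relatives, and in amygdala Napb was 1.61 to 2.67 times as high as Napa, whereas in blood this ratio was between 0 and 0.0205. Napa itself was 102, 78.1, 232 and 102 FPKM in HC blood and 118 to 146 FPKM in FC blood, at a log2 fold change of 0.16 with a standard error of 0.23.

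Of the members that passed without HC, the smallest p-values in Immo+FC vs. HC were those of Cplx2, Dnm1 and Syp. Cplx2 was 3.93, 2.00, 5.48 and 3.25 FPKM in HC and 0.573 to 1.81 FPKM in Immo+FC, all below HC, at a log2 fold change of -1.66 with a standard error of 0.40 (unadjusted p = 0.000864 and adjusted p = 0.0792 by limma). Dnm1 was 3.02, 1.17, 3.72 and 4.06 FPKM in HC and 0.120 to 1.34 FPKM in Immo+FC, at -2.07 (limma adjusted p = 0.0856). Syp was at -1.59 (limma adjusted p = 0.101). Napb, which passed through HC alone, was at -2.15, a description with no test. Syp was 7.78, 2.63, 11.4 and 11.5 FPKM in HC, 1.44 to 2.38 FPKM in FC and 1.005 to 4.14 FPKM in Immo+FC.

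These calls stood close to the threshold and moved with the settings. Without HC library 2, Syp passed in FC vs. HC, where 0.12% of all genes were called lower, and in Immo+FC vs. HC, where 0.129% were. Without FC library 5, Cplx2 passed in FC vs. HC, against 0.154% of all genes called lower. HC library 2 was the lowest HC pool for 28 of 32 members, and FC library 5 the highest FC pool for 25. Leaving either out widens the difference by construction, so these calls are no support for it. With no minimum level, 6 members were called lower in FC vs. HC (Amph, Napb, Cplx1, Syn2, Slc17a6 and Unc13a), against 1% of all genes, and 1, Unc13a, in Immo+FC vs. HC, against 0.496%. With a pseudocount of 1, Dnm1 and Napb, the latter in the table through HC alone, were called lower in Immo+FC vs. HC, against 0.652%.

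**Figure D5:**
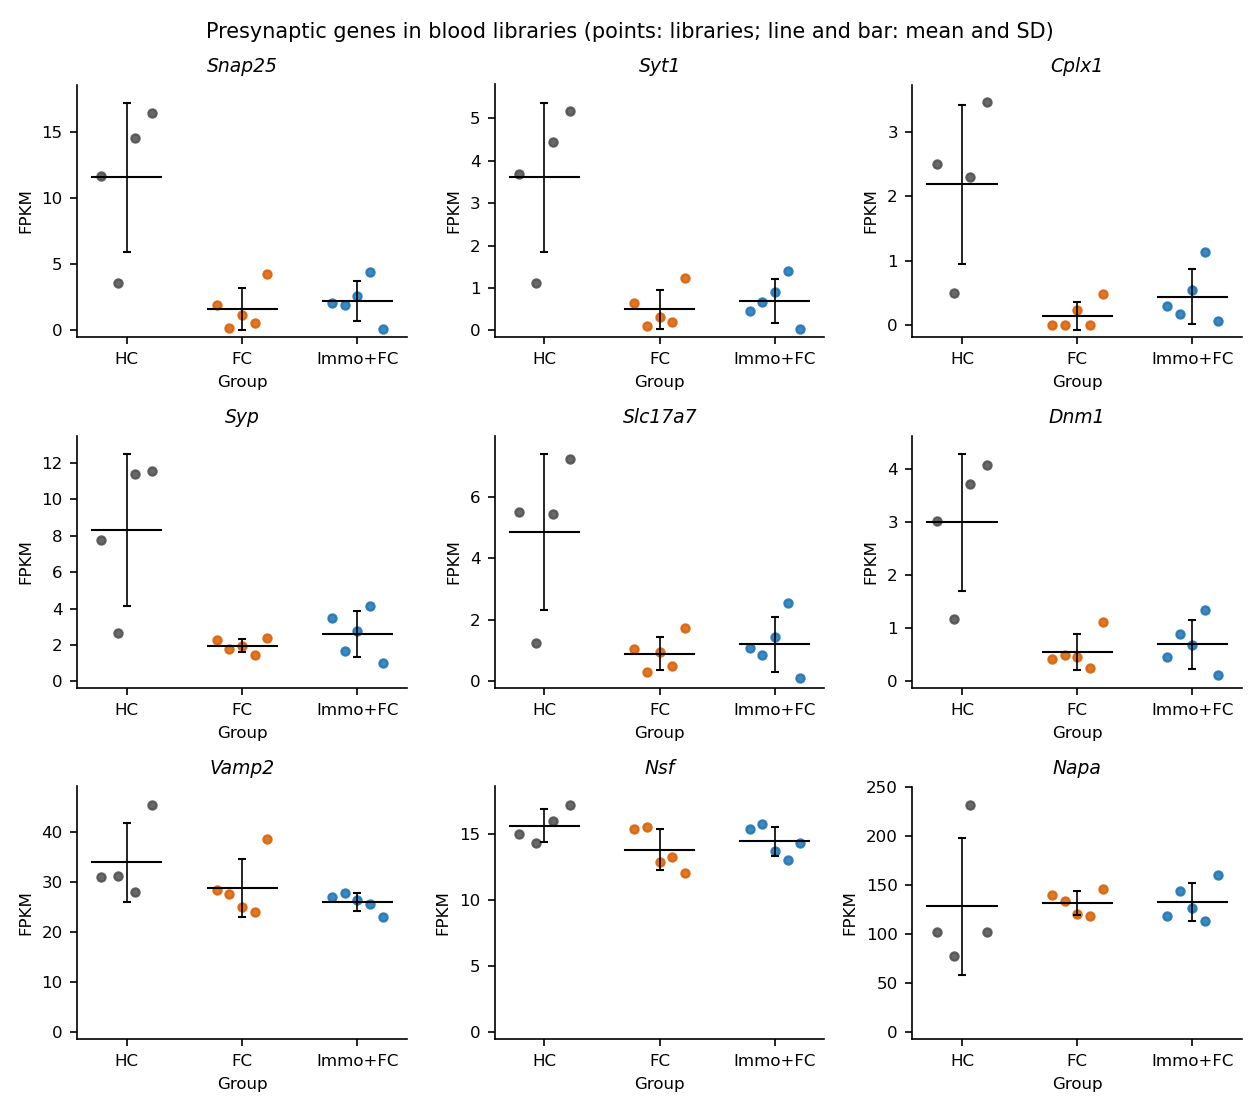
FPKM (vertical axes) of 9 presynaptic genes in each blood library by group (horizontal axes), with a point for each library and a line and bar for the mean and SD. For Snap25, Syt1, Cplx1, Syp, Slc17a7 and Dnm1 HC libraries 1, 3 and 4 sit above the conditioned libraries and HC library 2 is lower; Nsf and Napa overlap between all groups, and the highest Vamp2 value in Immo+FC, 27.8 FPKM, lies just below the lowest in HC, 28.0 FPKM.

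The mean levels of the transporters in HC blood followed their amygdala order. Slc17a7 was 5.51, 1.24, 5.43 and 7.24 FPKM in HC, 1.04, 0.298, 0.947, 0.506 and 1.73 FPKM in FC, and 1.096, 0.855, 1.44, 2.55 and 0.104 FPKM in Immo+FC, with HC library 2 inside both other ranges. Its log2 fold changes from HC were -2.25 in FC (limma adjusted p = 0.212) and -2.08 in Immo+FC (limma adjusted p = 0.155), and 0.17 in Immo+FC vs. FC. Slc32a1 was 0.0767 to 0.818 FPKM in HC, 0 to 0.374 FPKM in FC and 0 to 0.257 FPKM in Immo+FC. Slc17a6 was 0.0925 to 0.194 FPKM in HC and listed at 0 in 4 of 5 FC libraries. Slc17a6 and Slc32a1 were below the minimum and were not tested.

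The active zone genes were all below the minimum in blood. Pclo was 0.192, 0.0657, 0.169 and 0.159 FPKM in HC, 0.00651 to 0.0666 FPKM in FC and 0 to 0.0553 FPKM in Immo+FC. Unc13a was 0.334 to 0.833 FPKM in HC, 0.0486 to 0.197 FPKM in FC and 0.0592 to 0.329 FPKM in Immo+FC, without overlap with HC in either. Bsn, Rims2, Erc2 and Ppfia3 had HC means of 0.555, 0.355, 0.355 and 0.346 FPKM. The 2 Rims1 entries had HC ranges of 0.116 to 0.708 FPKM and 0.0597 to 0.484 FPKM and were listed at 0 in 4 and in 3 of the 5 FC libraries. Among all 32 members, 12 were listed at 0 in at least 1 blood library.

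Vamp2 was 28.0 to 45.5 FPKM in HC and 23.1 to 27.8 FPKM in Immo+FC, at a log2 fold change of -0.36 (limma adjusted p = 0.269), and Nsf was 14.4 to 17.3 FPKM in HC and 12.0 to 15.6 FPKM in FC, at -0.18 (limma adjusted p = 0.578). Synj1, which encodes a phosphatase of vesicle uncoating, had the smallest p in Immo+FC vs. FC. It was 3.44 to 4.37 FPKM in FC and 4.21 to 6.23 FPKM in Immo+FC, at a log2 fold change of 0.45 with a standard error of 0.17 (unadjusted p = 0.0225 and adjusted p = 0.523 by limma). The next were Cplx1, Syn2 at 0.79 and Syn1 at 0.43. Syngr1 was 44.9 to 294 FPKM in HC, with the highest value in the library of high erythroid level, and 75.5 to 98.9 FPKM in FC. The remaining genes Sv2a, Sv2b, Sv2c, Rab3a, Rph3a, Stx1a and Vamp1 had HC means of 2.42, 1.05, 0.216, 7.07, 1.31, 4.61 and 13.4 FPKM in blood, each above its FC and Immo+FC means. The log2 fold changes of Sv2a were -1.82 in FC vs. HC (limma adjusted p = 0.205) and -1.85 in Immo+FC vs. HC (limma adjusted p = 0.117), and those of Rph3a were -2.09 and -2.33. Amph was 0.567 to 1.27 FPKM in HC, 0.0394 to 0.360 FPKM in FC and 0 to 0.328 FPKM in Immo+FC, and Snph was 0.378 to 1.26 FPKM, 0.056 to 0.326 FPKM and 0 to 0.350 FPKM.

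Astrocyte and forebrain neuron markers moved with the same pools, while oligodendrocyte and microglial markers, given below, averaged no higher in HC than in FC. A list of 9 astrocyte genes summed to 13.9, 6.96, 15.0 and 18.8 FPKM in HC blood, 3.70 to 9.18 FPKM in FC and 5.26 to 7.80 FPKM in Immo+FC. Its most abundant gene, Aldoc, had 3.80 to 9.74 FPKM in HC and 2.00 to 4.65 FPKM in FC. The 6 forebrain neuron genes summed to 1.22, 0.439, 2.295 and 1.34 FPKM in HC, 0 to 0.549 FPKM in FC and 0.108 to 0.49997 FPKM in Immo+FC, and their defining gene Emx1 was listed at 0 in 3 of 4 HC libraries and in all conditioned ones. The 6 choroid plexus genes summed to 0.962 to 15.0 FPKM in HC, 0.373 to 1.77 FPKM in FC and 0.359 to 3.53 FPKM in Immo+FC. Cerebellar and brainstem lists summed to at most 0.474 FPKM in every blood library, but were low in HC amygdala too, at means of 9.35 and 0.774 FPKM. In HC, FC and Immo+FC blood the cerebellar list averaged 0.137, 0.0371 and 0.0832 FPKM, and the brainstem list 0.135, 0.0446 and 0.181 FPKM. In the same order, the striatal list averaged 11.7, 8.12 and 7.76 FPKM, and a peripheral nerve and ganglion list 0.573, 0.305 and 0.333 FPKM. The source of the RNA was not tested.

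The mean log2 level of 8 astrocyte and oligodendrocyte genes, centred over the blood libraries, was 0.601, 0.0242, 0.636 and 0.865 in HC, -0.726 to 0.247 in FC and -0.396 to 0.0219 in Immo+FC. With this level as a covariate, Snap25 was at -0.040 in FC vs. HC and 0.36 in Immo+FC vs. HC, Syt1 at -0.28 and 0.024, and Slc17a7 at 0.090 and 0.20, on the log2 scale. The glial level and the group differed together, and their parts cannot be told apart. The 8 glial genes were those averaging 0.5 FPKM or more over all blood libraries, HC included. Which of them passed through HC alone was not examined, so the values with this covariate are descriptions. The oligodendrocyte, microglial and 14-gene neuronal lists averaged 208.8, 101.5 and 140.7 FPKM in HC blood and 216.0, 109.1 and 146.0 FPKM in FC blood. The part that blood cells had in these lists was not tested. The oligodendrocyte list summed to 171 to 253 FPKM in HC and 199.8 to 232 FPKM in FC, and the microglial list to 76.1 to 131 FPKM and 81.2 to 136 FPKM. The list of 14 other neuronal genes summed to 121 to 149.8 FPKM in HC and 121 to 164 FPKM in FC, most of it Thy1, which T cells also express.

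Of the 57 further presynaptic genes, 26 passed the minimum in blood and 0 passed the threshold in any comparison, with 7 lower and 1 higher in FC vs. HC, 5 lower and 2 higher in Immo+FC vs. HC, and 0 lower and 2 higher in Immo+FC vs. FC at an unadjusted p under 0.05. The shares over all genes were 5.87% lower and 4.34% higher, 8.12% and 7.14%, and 3.75% and 5.79% in the same order. The minimum was averaged over all blood libraries, HC included. Which of the 26 passed through HC alone was not examined, so the counts against HC are given without further reading.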

How the data were processed

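Poly-A libraries (TruSeq) of amygdala and blood pools were aligned by the authors with STAR 2.3 to mm10, and Cufflinks and Cuffdiff 2.1.1 gave per sample FPKM, each tissue separately. The deposited FPKM table of 23303 entries was used, of which 272 join several gene symbols. It holds no counts, so no interval for counting error is given. Depths are the totals and unique percentages that the authors deposited as counts and as a percent per library, 9081977 to 31366290 sequences. Groups came from the sample labels. All 3 groups of a tissue entered 1 limma 3.58.1 fit (R 4.3.3) with an intensity trend on log2(FPKM + 0.1), for genes averaging 0.5 FPKM or more, with Benjamini-Hochberg adjustment over all genes and a threshold of 0.05. The fit was checked on simulated data. Alternatives were other pseudocounts, minimum levels and scalings, library weights, 2-group fits, a replicate block, a long transcript or glial covariate, and leaving out libraries. Members and lists were chosen with earlier results of these data known. Every member is named with its level; per-library values and fold changes are given for Snap25, Syt1, the 3 transporters, Pclo, members past the threshold and, where fewer than 4 passed, the 4 smallest unadjusted p-values. Gene coordinates and overlaps came from GENCODE M21 and promoters from RefSeq GRCm38.p6.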

Additional observations from a re-analysis of the deposited data

Results flagged for a closer look

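Of 192 groups of 4 to 6 libraries, 18 held a library far from the others by Dixon's criterion, which chance gives in about 1 of 20 groups. Values are in FPKM.

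In amygdala, Vamp2 was 415 in HC library 1 against 364 to 379 in the others. Erc2 was low in the first pools, at 27.3 in HC library 1 and 23.8 in FC library 1, and Pclo was 11.3 in Immo+FC library 1 against 16.6 to 17.4. Rab3a was 328 in the same Immo+FC pool against 288 to 293, and Syp was 472 in Immo+FC library 3 against 502 to 505. Nsf was 241 in HC library 3 and 320.4 in FC library 2, and Napb was 167 in that FC library. Ppfia3 was 31.2 in FC library 5 against 34.7 to 35.5.

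In blood, FC library 5 was high for Cplx2 at 2.59 and for Dnm1 at 1.12. Immo+FC library 4 was high for Unc13a at 0.329 and for Erc2 at 0.284, and Immo+FC library 2 for Rims2 at 0.189. Syngr1 was 118 in Immo+FC library 5 against 59.99 to 73.2, Napa was 232 in HC library 3 against 78.1 to 102, and Slc17a6 was 0.0305 in FC library 4 and listed at 0 in the other FC libraries.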

How the results depend on the processing

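Of the log2 fold changes of named members under alternatives, 1276 kept direction and side of the threshold, 49 reversed and 8 newly passed it. Counts of members are not among these results. In amygdala FC vs. HC, Snap25 (log2 fold change 0.0056) was -0.0012 under median-ratio scaling, -0.019 under quantile normalization, -0.022 with library weights and -0.044 without HC libraries 1 and 2, where Slc17a6 was -0.023. With the long transcript covariate Pclo was 0.055 and Syt1 0.092, and in Immo+FC vs. FC Pclo was -0.12. Pclo was the 1 member called with library weights and the 1 called without HC libraries 1 and 2. Snap25 was 0.017 in Immo+FC vs. FC under quantile normalization, and in Immo+FC vs. HC Slc17a6 was 0.0015 under median-ratio scaling and 0.0047 with library weights. In blood, no minimum level gave 6 called members in FC vs. HC and 1 in Immo+FC vs. HC, and a pseudocount of 1 gave 2 in the latter. With the glial covariate Slc17a7 was 0.090 in FC vs. HC, and in Immo+FC vs. HC Slc17a7 was 0.20, Snap25 0.36 and Syt1 0.024. The cause was not tested.

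Leaving out 1 library at a time gave these ranges. In amygdala FC vs. HC, Slc17a6 ran from -0.044 to 0.092, Slc17a7 from -0.041 to 0.019 and Snap25 from -0.029 to 0.025. In Immo+FC vs. FC, Slc17a6 ran from -0.17 to 0.076, Slc32a1 from -0.23 to 0.059 and Syt1 from -0.13 to 0.019. In Immo+FC vs. HC, Pclo ran from -0.16 to 0.10, Slc17a6 from -0.15 to 0.096, Slc32a1 from -0.054 to 0.24 and Snap25 from -0.099 to 0.0051. In blood Immo+FC vs. FC, Slc17a7 ran from -0.18 to 0.74 and Snap25 from -0.056 to 1.28. Called blood members ran from 0 to 1 in FC vs. HC (Syp without HC library 2, Cplx2 without FC library 5) and from 0 to 1 in Immo+FC vs. HC (Syp without HC library 2), and members lower in every library from 12 to 23 and from 9 to 25. The last counts, and their values without HC libraries 3 and 4, were added after the data were seen. HC library 2 and FC library 5 were the extreme pools of their groups for most members, so leaving either out raises such counts by construction.

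Counts of called genes over the whole table moved by more than 1.5 times in every comparison but blood Immo+FC vs. FC. In amygdala they were 2 in FC vs. HC (1 to 500 under the alternatives), 3 in Immo+FC vs. FC (1 to 171) and 27 in Immo+FC vs. HC (0 to 148), and in blood 4 (1 to 195), 0 (0 throughout) and 8 (1 to 361). Within a tissue, same-numbered libraries of different groups did not deviate together, with correlations of -0.257 to 0.310, so the numbers do not pair the groups. Pairing of amygdala and blood was not examined. By the pool numbers in the sample labels, a library number does not always mark the same pool in both tissues. With a replicate block, 0 members were called in all 6 comparisons, Pclo was 0.037 in amygdala Immo+FC vs. HC, and called genes were 160, 62 and 0 in amygdala and 2, 0 and 8 in blood. The FPKM table gives no counts behind a value, and blood values under about 0.5 FPKM were not tested.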
